A study of Mus musculus with 5 samples.

Results

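Some mature miRNAs are cut from hairpins that belong to another class of small RNA. Here 7 such miRNAs were followed in mouse OP9 cells labelled Drosha KO or Empty vector. They are miR-1839, miR-664, miR-3068, miR-1843a, miR-1843b, miR-6516 and miR-677, taken by name with every listed arm. That gave 8 mature arms from 7 hairpins, of 1191 listed combinations of mature miRNA and precursor. Of these arms 7 were 5p arms and 1, miR-664-3p, was a 3p arm. No 3p arm was listed for the other hairpins, and most tested miRNAs were likewise 5p arms. Shares of TPM below are therefore shares of the listed arms only. OP9 is a mouse bone-marrow stromal line, described in the labels as mesenchymal stem cells, that can turn into adipocytes. Small RNAs were sequenced from 2 libraries of Drosha KO cells and 3 libraries of Empty vector cells, whose genotype is given as WT and which serve as controls. All 5 libraries came from day 10 under 1 µM rosiglitazone, an agonist of PPARγ, added once the cells were confluent. Neither the knockout method nor the number of clones is given in the sources used here. Nothing says that replicates were separate cultures, so the p-values reflect library-to-library spread that may be technical.

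Drosha is the nuclear RNase III enzyme that, with Dgcr8, trims primary miRNA transcripts into hairpins, which Dicer then cuts into mature miRNAs. Small nucleolar RNAs (snoRNAs) and small Cajal body RNAs (scaRNAs) guide chemical modification of ribosomal and spliceosomal RNA. H/ACA RNAs fold into a pair of hairpins followed by an ACA tail and guide pseudouridylation, while C/D RNAs carry a C box and a D box and guide ribose methylation. Some of these RNAs are trimmed from introns and can be cut by Dicer into miRNA-sized RNAs without Drosha.

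The mature sequences are shown first because each arm has its own seed, the part that pairs with target mRNAs. They are RefSeq sequences on build GRCm38.p6, written 5′ to 3′ with the seed (bases 2 to 8) in capitals.
mmu-miR-1839-5p: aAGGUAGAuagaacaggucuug
mmu-miR-664-3p: uAUUCAUUuacuccccagccua
mmu-miR-664-5p: cUGGCUGGggaaaaugacugg
mmu-miR-3068-5p: uUGGAGUUcaugcaaguucuaacc
mmu-miR-1843a-5p: uAUGGAGGucucugucugacu
mmu-miR-1843b-5p: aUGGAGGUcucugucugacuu
mmu-miR-6516-5p: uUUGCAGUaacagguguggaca
mmu-miR-677-5p: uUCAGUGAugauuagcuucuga

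The 8 arms had 8 distinct seeds, and 0 other mature miRNAs in the RefSeq table shared any of them. miR-1843a-5p and miR-1843b-5p differ mainly in where they start. They share a run of 20 bases, which begins at base 2 of miR-1843a-5p and at base 1 of miR-1843b-5p. A read inside that run could be counted for either or for both, so their values are uncertain and are not separate measurements. No other pair of arms shared a run of more than 7 bases.

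The annotation bore out the name of the group. On GRCm38 (GENCODE M21), each of the 7 hairpins overlapped a snoRNA or scaRNA gene on the same strand, by 64 to 88 bases, with 4 hosts annotated as scaRNA and 3 as snoRNA. Mir664 (chromosome 1, 185242975 to 185243043) lies in Snora36b, in an intron of Rab3gap2. Mir1843b (chromosome 1, 159340358 to 159340423) lies in Scarna3a, in an intron of Cop1, and Mir1843a (chromosome 12, 80391613 to 80391677) lies in Scarna3b, in an intron of Dcaf5. Mir3068 (chromosome 12, 87437679 to 87437757) lies in a snoRNA in an intron of Alkbh1, and Mir677 (chromosome 10, 128085286 to 128085363) in a snoRNA in an intron of Atp5b, the gene of a mitochondrial ATP synthase subunit. Mir1839 (chromosome 7, 81529916 to 81529988) lies in a scaRNA and overlaps an exon of the long noncoding RNA 2900076A07Rik. Mir6516 (chromosome 11, 117077348 to 117077457) lies in the scaRNA Gm26083 and overlaps an exon of Snhg20, a host transcript of small RNAs. Mir1843a and Mir3068 are on the minus strand and the others on the plus strand.

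A few host RNAs show how the arms sit in them. The host sequences are GENCODE M21 transcripts on GRCm38, written 5′ to 3′ as DNA letters, with the listed arm in capitals (for Snora36b, the 3p arm).
Snora36b with miR-664-3p, chr1:185242907-185243038, plus strand: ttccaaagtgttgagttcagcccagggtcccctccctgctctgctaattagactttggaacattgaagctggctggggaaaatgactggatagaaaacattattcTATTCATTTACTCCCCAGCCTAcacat
Scarna3a with miR-1843b-5p, chr1:159340283-159340422, plus strand: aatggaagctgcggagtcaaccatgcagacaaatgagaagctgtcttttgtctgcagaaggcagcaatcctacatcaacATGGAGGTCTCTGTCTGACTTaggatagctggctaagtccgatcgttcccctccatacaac
The Mir3068 host with miR-3068-5p, chr12:87437682-87437817, minus strand: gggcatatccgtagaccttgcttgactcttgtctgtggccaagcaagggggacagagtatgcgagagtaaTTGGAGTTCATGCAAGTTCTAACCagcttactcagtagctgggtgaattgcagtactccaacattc
The Mir677 host with miR-677-5p, chr10:128085289-128085360, plus strand: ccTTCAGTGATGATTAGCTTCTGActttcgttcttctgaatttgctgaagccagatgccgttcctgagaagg

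In 6 of the 7 hosts the miRNA hairpin lay at the 3′ end of the host RNA and in some reached past it, and its 5p arm ended 40 to 44 bases before the annotated 3′ end. The letters ACA, searched on the RNA strand only, occurred within the last 10 bases of these 6 hosts, as they did in 48.1% of all 1558 annotated snoRNA and scaRNA transcripts. The host of miR-677 was the exception. It was 72 bases long and lay wholly within the hairpin, with the letters TGATGA at bases 8 to 13, inside the miR-677-5p arm, and CTGA 5 bases before the 3′ end. Both TGATGA in the first 15 bases and CTGA in the last 15 bases were found in 19.2% of those transcripts. A match is a description of letters and not of a bound protein. Predicted minimum free energies (RNAfold) of the 7 RefSeq hairpins ran from -35.2 to -17.5 kcal/mol, with a median of -23.1. The median of the other 821 matched hairpins of the table was -31.6, with quartiles of -39.4 and -25.3, and the difference was not tested.

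**Figure D1:**
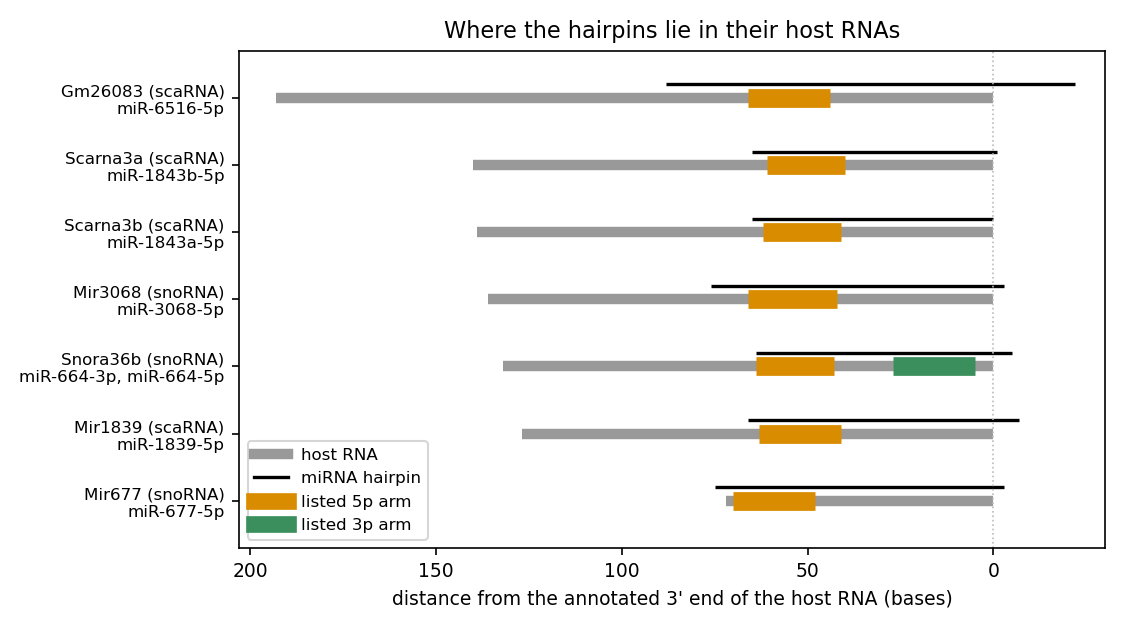
Each host RNA is drawn to scale in grey by distance in bases from its annotated 3′ end, with the miRNA hairpin as a black line and the listed arms in orange (5p) and green (3p). The 5p arms of 6 hosts end 40 to 44 bases before the 3′ end, while miR-677-5p lies at the start of a 72-base host.

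The authors' values are TPM, reads divided by length and scaled to the same sum in each library, so every value is a relative abundance. Recovered reads over all pairs were 304722 and 277142 in the knockout libraries and 1918589 to 2262367 in the control libraries, on average 7.11-fold more. These are reads of listed miRNAs only and do not give the sequencing depth of a library. The Drosha transcript was not analysed here, so the loss of Drosha rests on the labels alone. Mesenchymal marker miRNAs, of which 5 of 5 listed had reads, summed to 24666 to 32998 TPM in the knockout and 17110 to 18770 TPM in the control group. Their directions were mixed. By mean, miR-143-3p, miR-145a-5p and miR-199a-5p were higher in the knockout and miR-214-5p was lower (725 against 947 TPM). Of 4 listed haematopoietic markers only miR-451a had reads, at 19.9 to 58.7 against 4.99 to 8.06 TPM, and the single liver marker miR-122-5p was at 25.7 to 36.5 against 5.28 to 12.0 TPM. The single endothelial and 3 muscle markers had none, 1 of 6 epithelial markers had reads (0 to 7.33 against 3.49 to 4.03 TPM), and of 2 neural markers miR-9-5p had reads (3.51 to 9.52 against 14.6 to 15.6 TPM). The part of these shifts in the results below was not tested.

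The comparison asks how miRNAs whose hairpins come from snoRNAs and scaRNAs differ between the Drosha KO and Empty vector libraries. As deposited, 6 of the 7 tested arms were higher in the knockout, 0 were lower and 1 did not pass. The test was limma with Benjamini-Hochberg (BH) adjustment over 205 tested miRNAs. However, all 7 turned negative, and 2 were called lower, after rescaling to an equal sum of a subset of the listed Drosha-independent miRNAs. Of all 205 tested miRNAs 27.8% were called higher, 27.3% lower and 55.1% in either direction, so such a call is common here. In bulk libraries, fewer cells making a miRNA and less of it per cell cannot be told apart. The median log2 change was 1.90 over the 7 tested arms and -0.08 over all tested miRNAs. miR-664-5p was below the minimum mean of 5 TPM and was not tested. miR-6516-5p, whose control mean was under 5 TPM, passed that minimum only through the knockout. It is nonetheless included in the counts, median and ranks of the tested arms. The 7 changes ranked between 24 and 52 of 205 from the largest rise down.

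**Figure D2:**
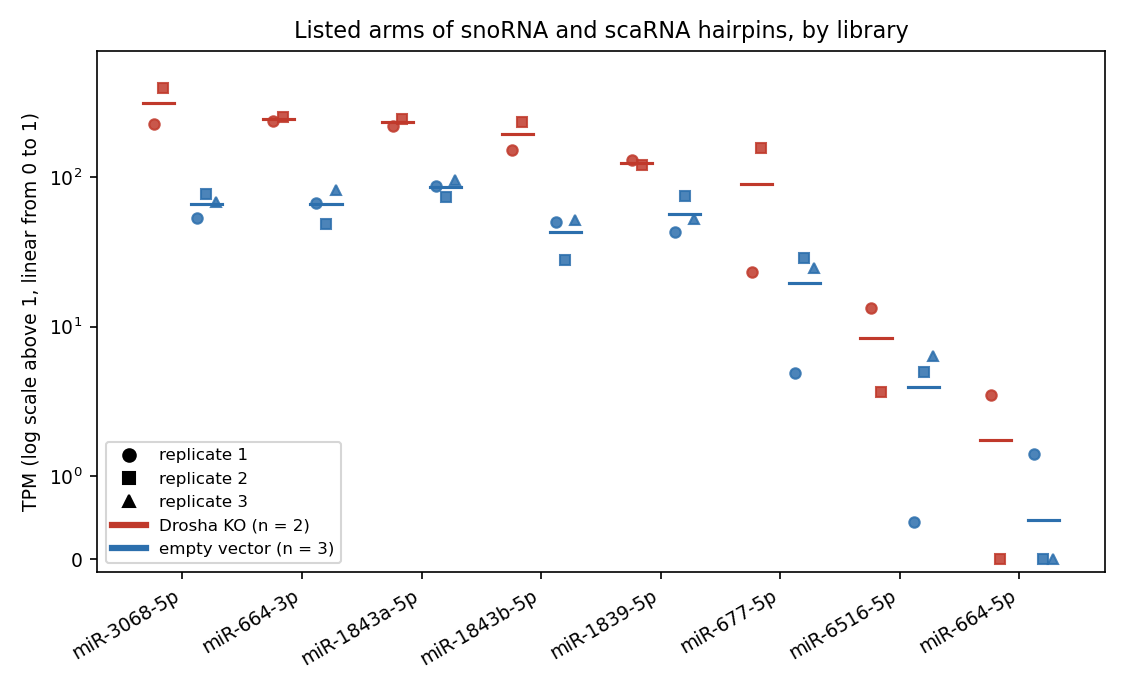
TPM of each listed arm in every library, on a log axis above 1 TPM and a linear one below, with a bar at each group's mean (Drosha KO, n = 2, red; empty vector, n = 3, blue; marker shape gives the replicate). For miR-3068-5p, miR-664-3p, miR-1843a-5p, miR-1843b-5p and miR-1839-5p both knockout libraries lie above all control libraries, a relation that holds for these TPM values as deposited and not after rescaling to Drosha-independent miRNAs.

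For the snoRNA hosts with ACA letters near the end, those of miR-664 and miR-3068, miR-664-3p and miR-3068-5p had several-fold higher TPM in the knockout as deposited. Relative to miR-484, given below, neither mean was higher in the knockout. mmu-miR-664-3p, the 3p arm next to the 3′ end of Snora36b, was at 239 and 253 TPM in the knockout libraries and at 66.7, 48.4 and 82.3 TPM in the control libraries. The groups did not overlap and the knockout pair lay within 1.06-fold of each other. The means were 246 ± 10.0 (SD, n = 2) and 65.8 ± 17.0 TPM (SD, n = 3), a 3.74-fold difference, from 72 and 69 reads against 149, 97 and 156. On the log2 scale it rose by 1.92 (SE 0.35; BH-adjusted p = 9.27e-05 in limma). The other arm of the same hairpin, miR-664-5p, had 1 and 0 reads in the knockout and 3, 0 and 0 reads in the control libraries. At its length the floor of 3 reads was 10.4 and 11.5 TPM in the knockout libraries. A knockout level below these was not detectable with so few recovered miRNA reads. The upper 95% Poisson limits in the knockout libraries were 19.4 and 14.2 TPM. These floors and limits cover counting error only.

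mmu-miR-3068-5p was at 225 and 397 TPM in the knockout and at 53.4, 77.3 and 68.2 TPM in the control libraries. Knockout library 2 was 1.76-fold above library 1, yet both lay above every control library. The means were 311 ± 121 (SD, n = 2) and 66.3 ± 12.1 TPM (SD, n = 3), 4.69-fold apart, with a log2 change of 2.17 (SE 0.35, limma, BH-adjusted p = 2.32e-05). It had the most reads of the arms in each knockout library, 74 and 118.

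The scaRNA hosts Scarna3a and Scarna3b give the near-identical pair. mmu-miR-1843a-5p was at 219 and 246 TPM in the knockout and at 87.3, 73.7 and 96.2 TPM in the control libraries. Its means were 232 ± 19.0 (SD, n = 2) and 85.7 ± 11.3 TPM (SD, n = 3), 2.71-fold apart, with a log2 change of 1.43 (SE 0.33, limma, BH-adjusted p = 0.000926). mmu-miR-1843b-5p was at 153 and 234 TPM in the knockout and at 49.7, 27.7 and 51.9 TPM in the control libraries. Its means were 194 ± 57.6 (SD, n = 2) and 43.1 ± 13.4 TPM (SD, n = 3), 4.49-fold apart, with a log2 change of 2.16 (SE 0.39, limma, BH-adjusted p = 8.47e-05). In neither arm did the groups overlap. Summed into 1 value, an alternative chosen after seeing the data, the pair was at 426 ± 76.6 (SD, n = 2) against 129 ± 24.4 TPM (SD, n = 3) with a log2 change of 1.72 (SE 0.31, limma, BH-adjusted p = 8.40e-05), and 5 values of the group were then called higher.

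mmu-miR-1839-5p, from the scaRNA on chromosome 7, had a smaller log2 change than the arms above, a difference that was not tested. It was at 129 and 121 TPM in the knockout and at 43.0, 74.4 and 52.2 TPM in the control libraries, with no overlap. On the log2 scale it rose by 1.17 (SE 0.37; BH-adjusted p = 0.0107 in limma). It no longer passed once knockout library 1 was left out (1.12 on the log2 scale), nor without knockout library 2 (1.22), nor without control library 1 (0.99), nor with the replicate number as a block (1.13). Its limma adjusted p ran from 0.00309 to 0.0802 over all alternatives, the lowest being for the opposite direction after the rescaling. mmu-miR-6516-5p, from the scaRNA in Snhg20, had 4 and 1 reads in the knockout and 1, 10 and 12 in the control libraries. That is 13.3 and 3.67 TPM against 0.448, 4.99 and 6.33 TPM, and the groups overlapped. Its log2 change was 1.03 (95% interval -0.69 to 2.76, limma, BH-adjusted p = 0.284), an interval that runs from a fall to a rise. Since this arm passed the minimum level only through the knockout, nothing is read from its test.

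mmu-miR-677-5p, the arm from the short host with C-box and D-box letters, varied most within the groups among arms with 10 or more reads on average. It was at 23.2 and 158 TPM in the knockout libraries, 6.79-fold apart, and at 4.93, 28.9 and 24.8 TPM in the control libraries, 5.87-fold from lowest to highest. The groups overlapped, and replicate 1 was the lowest in both. These differences exceeded counting error, since 7 reads in knockout library 1 give a 95% Poisson interval of 9.34 to 47.8 TPM and 43 reads in library 2 one of 114 to 212 TPM. In control library 1 the interval was 2.46 to 8.82 TPM, below those of libraries 2 and 3, the lower of which began at 18.2 TPM. On the log2 scale the change was 1.90 (SE 0.65; BH-adjusted p = 0.0166 in limma). The call rested on single libraries: the log2 change was 0.54 without knockout library 2, 1.16 without control library 1 and 3.26 without knockout library 1, and only the last of these passed. Its limma adjusted p ran from 0.000386 to 0.637 over all alternatives.

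Between the groups, 5 of the 7 tested arms had no overlap with both knockout libraries higher, against 35.6% of all tested miRNAs. As levels per length in the knockout, miR-3068-5p came first, then miR-664-3p, miR-1843a-5p, miR-1843b-5p, miR-1839-5p, miR-677-5p, miR-6516-5p and miR-664-5p. The ranges of the first 4 overlapped from each neighbour to the next, miR-1839-5p lay below miR-1843b-5p in both libraries, and miR-677-5p spanned the level of miR-1839-5p. In the control group miR-1843a-5p had the highest mean, then miR-3068-5p, miR-664-3p, miR-1839-5p and miR-1843b-5p, and every neighbour's range overlapped the next.

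**Figure D3:**
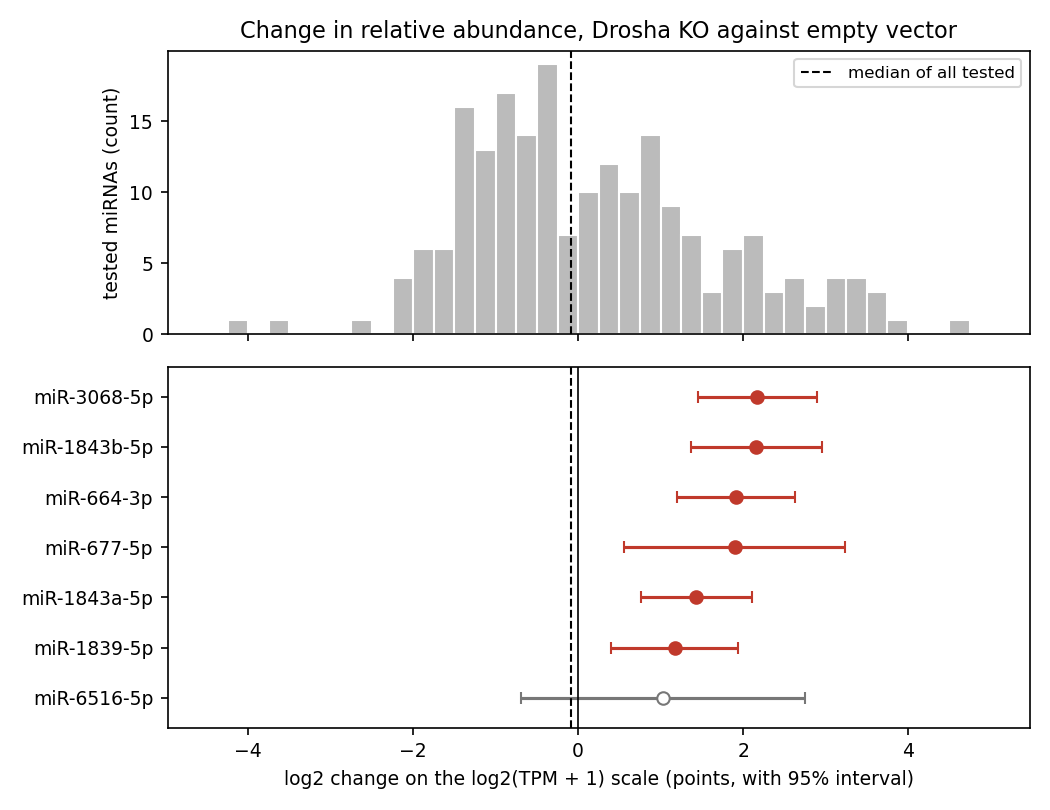
Top, the log2 changes of all 205 tested miRNAs as a histogram with their median of -0.08 (dashed); bottom, the 7 tested arms with 95% intervals, filled where the adjusted p was under 0.05. The 7 points lie between 1.03 and 2.17 as deposited and only the interval of miR-6516-5p crosses 0, while after rescaling to Drosha-independent miRNAs all 7 points are below 0.

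The group as a whole took a small part of the summed TPM. All 8 arms summed to 0.101% and 0.141% of TPM in the knockout, against 0.0307%, 0.0335% and 0.0382% in the controls. The groups did not overlap, and the means, 0.121% ± 0.0288 (SD, n = 2) and 0.0341% ± 0.00378 (SD, n = 3), were 3.54-fold apart (two-sided exact permutation p = 0.2, the smallest that 2 against 3 libraries allow). These shares rest on 304 and 389 recovered reads in the knockout and at most 723 in a control library.

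Since TPM is a share, 2 ratios within each library, which no rescaling of the library changes, were taken. Against 11 listed canonical miRNAs, textbook Drosha products such as let-7 and miR-26a, the 8 arms summed to 0.247% and 0.369% in the knockout and 0.0720%, 0.0819% and 0.0903% in the control libraries. The knockout ratio was 3.78-fold higher without overlap (two-sided exact permutation p = 0.2). Against miR-484, which is made from a short capped hairpin without Drosha, the order was the opposite. The 8 arms summed to 4.64% and 6.72% of miR-484 in the knockout and to 8.43%, 9.49% and 7.48% in the control libraries, 0.671 times as much and again without overlap (two-sided exact permutation p = 0.2). miR-1839-5p was at 0.598% and 0.576% of miR-484 in the knockout against 1.18%, 2.10% and 1.02%. miR-3068-5p was at 1.04% and 1.89% against 1.47%, 2.19% and 1.34%, where the groups overlapped, as they did for miR-1843b-5p, miR-6516-5p and miR-677-5p.

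**Figure D4:**
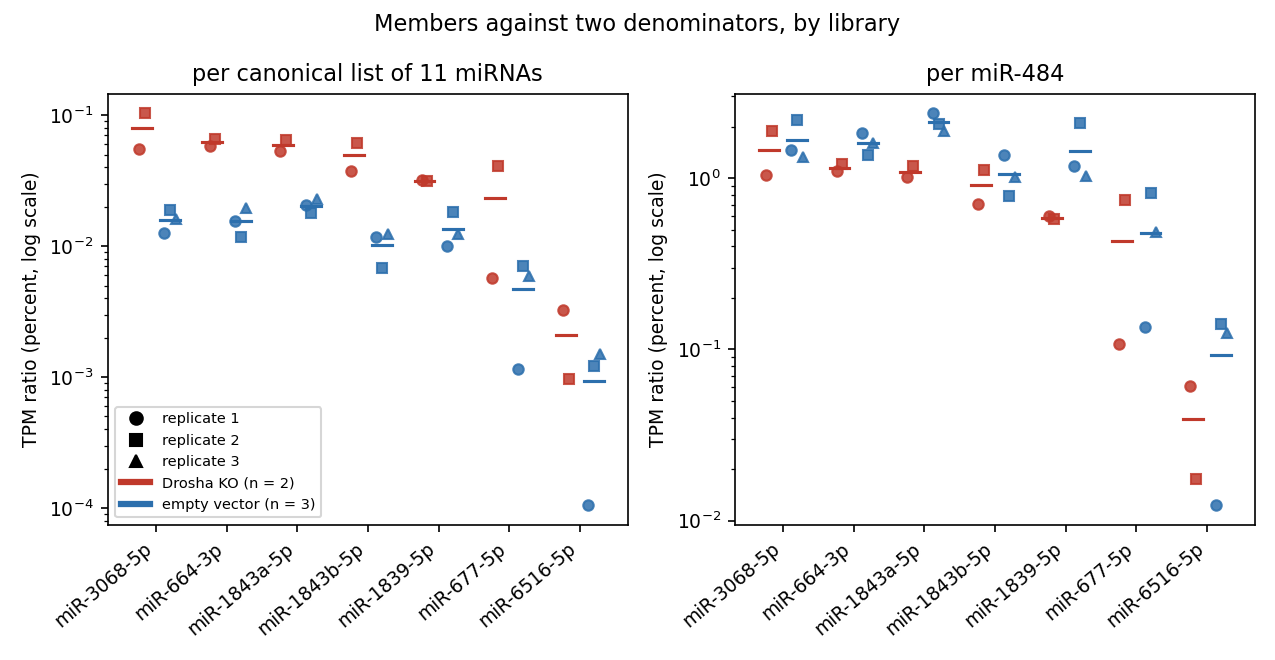
TPM of each tested arm as a percent of the summed canonical list (left) and of miR-484 (right), per library on log axes, with group means as bars (Drosha KO, n = 2, red; empty vector, n = 3, blue). On the left the knockout points of 5 arms all lie above the control points, and on the right those of no arm do. There the knockout points of miR-1839-5p, miR-1843a-5p and miR-664-3p all lie below the control points.

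The same contrast was read for the other lists. Of 8 listed Drosha-independent miRNAs (capped hairpins and mirtrons, the latter released by splicing) 4 were tested and 4 were higher, with a median log2 change of 3.20. miR-484 was at 21642 and 21011 TPM against 3640, 3537 and 5105 TPM (log2 change 2.40), and the mirtrons miR-1981-5p (3.12), miR-3102-5p.2-5p (3.29) and miR-877-5p (4.50) had larger log2 changes than any of the 7 arms, a difference that was not tested. Of the 11 canonical miRNAs, 1 was higher (miR-30a-5p, log2 change 0.76), 2 were lower (miR-26a-5p, -0.75, and let-7f-5p, -0.76) and 8 did not pass, with a median of -0.11. Together the 11 took 40.7% and 38.2% of TPM in the knockout and 42.6%, 41.0% and 42.3% in the control libraries. How much Drosha activity remained in the knockout cells was not tested.

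The table held a few more miRNAs whose hairpins overlap snoRNA or scaRNA genes by at least 30 bases, found among the 887 mature miRNAs matched to RefSeq. They were 5 arms, of which 3 had reads and 1 was tested. miR-3084-5p, whose hairpins lie in Snora19 and in Gm23658 on chromosome 19, had 3 and 5 reads in the knockout. It had 3, 1 and 3 in the control libraries, which held more recovered reads, or 9.95 and 18.3 against 1.34, 0.499 and 1.58 TPM. It passed the minimum level only through the knockout, so its test is not given. miR-3069-5p, in Scarna13, had 0 and 2 reads in the knockout and no read in the control libraries, and miR-1291, in Snora34, had 1 and 0 against 1, 2 and 5 reads. miR-7650-5p and miR-7650-3p had no reads.

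The tested miRNAs most like the group were those with the highest Pearson correlation, over the 5 libraries, between log2(TPM + 1) and the mean standardised profile of the 7 arms. They were miR-194-5p (r = 0.993), miR-17-5p (0.987), miR-877-5p (0.987), miR-339-5p (0.986) and miR-369-5p (0.985), given as a description with 5 points in 2 groups. With a control mean of 4.52 TPM, miR-369-5p passed the minimum level only through the knockout. Only miR-877-5p among them is on the Drosha-independent list. miR-194-5p was at 163 and 187 TPM in the knockout and 88.3, 105 and 103 TPM in the control libraries (log2 change 0.82). For miR-17-5p the values were 102 and 123 against 27.0, 48.7 and 43.9 TPM. Its log2 change of 1.51 lies within the 1.03 to 2.17 of the 7 arms. miR-339-5p was at 88.8 and 80.7 TPM in the knockout and 14.6, 18.1 and 25.7 TPM in the control libraries. The mirtron miR-877-5p was at 445 and 335 against 8.38, 20.9 and 23.2 TPM.

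**Figure D5:**
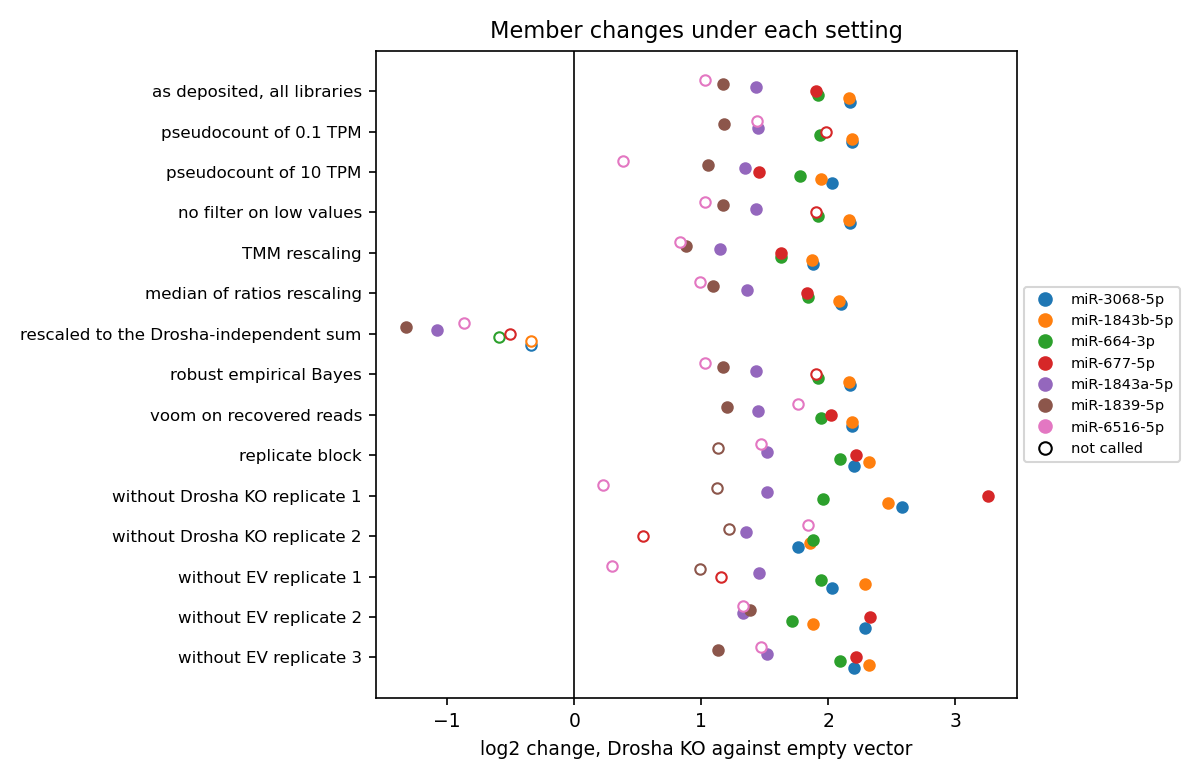
Log2 change of each tested arm (colours) under every setting tried, filled where the adjusted p was under 0.05 (EV is the empty vector). The 7 arms are positive in all settings except rescaling to the Drosha-independent sum, where they run from -1.33 to -0.34 and miR-1839-5p and miR-1843a-5p are called lower.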

How the data were processed

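The authors deposited TPM values for each mature miRNA and precursor in 5 libraries, each summing to the same total. Bowtie2 2.5.1 and GRCm38 are named, with no role, per the submitters' processing notes. Unique molecular identifiers were built in, per the labels' protocols. Not given in the sources used here are the counting tool, filters, strand and use of the identifiers. The pair with the highest mean stood for each of 1105 mature miRNAs. Whole reads were recovered from TPM by searching lengths of 15 to 30 bases (100% of values whole within 1e-06; 6 of 536 pairs with reads fitted more than 1 length). Mature miRNAs with several precursors are listed once for each, so a read may be counted more than once.

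Values as log2(TPM + 1) were compared between groups with limma 3.58.1 (R 4.3.3; empirical Bayes with an intensity trend). The 205 miRNAs whose mean reached 5 TPM entered. Tests were two-sided, with BH adjustment and a threshold of 0.05. The fit had 3 residual and 24.2 prior degrees of freedom. Each limma p-value therefore rests mostly on a variance trend shared over the tested miRNAs, and less on an arm's own spread between libraries. Folds are ratios of mean TPM, and log2 changes understate those of low miRNAs. Ratios were compared by exact permutation tests over 10 splits. Sequences came from RefSeq and GENCODE M21, and folding from RNAfold 2.7.2. The members, lists and naming rules were chosen with earlier results of these data known. Named were all listed arms, up to 4 Drosha-independent and up to 6 other snoRNA-hairpin miRNAs by abundance, and the 5 most alike miRNAs. Canonical miRNAs that passed were named after their values were seen. The replicate numbers were not taken as pairs, since the labels tie them to no shared culture or day.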

Additional observations from a re-analysis of the deposited data

How the results depend on the processing

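Under 14 alternatives, miR-664-3p, miR-3068-5p, miR-1843a-5p and miR-1843b-5p kept their direction and call in 13 each. The exception was rescaling to an equal Drosha-independent sum (miR-484 and mirtrons), which moved the median of all tested miRNAs from -0.08 to -2.54. There miR-1839-5p was at -1.33, miR-1843a-5p at -1.08, miR-6516-5p at -0.86, miR-664-3p at -0.59, miR-677-5p at -0.51, miR-3068-5p at -0.34 and miR-1843b-5p at -0.34, with 0 arms called higher, 2 called lower, and 3 against 160 over all tested miRNAs. The log2 ratio of the arms' summed share turned from 1.82 to -0.71. This rescaling holds the sum equal by construction. In that sum miR-484 had the highest mean over the libraries, 10987 TPM, followed by miR-1981-5p at 2427 TPM and miR-877-5p at 166 TPM. TMM moved the median of all tested to -0.37 and the split from 57 higher and 56 lower to 47 and 76. miR-677-5p also lost its call with a pseudocount of 0.1 TPM, with no filter on low values and under robust empirical Bayes (adjusted p = 0.0523, 0.163 and 0.207). The cause was not tested.

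Leaving out single libraries gave 4 to 6 arms called higher and 0 called lower, 39 to 55 tested miRNAs higher and 34 to 52 lower, and a log2 ratio of the share from 1.56 to 2.05. A group left with 1 library was assumed to vary like the other. With the replicate number as a block, where control library 3 has no partner and drops out, 5 arms were called higher and 39 tested miRNAs were higher and 35 lower; the deviations of same-numbered libraries correlated at -0.12 and -0.14. Low read numbers limit miR-6516-5p and miR-664-5p, with at most 12 reads in any library.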
